A study of Homo sapiens with 4 samples.

Results

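The genes examined here encode the proteins of the mitochondrial ribosome. They were taken as every protein-coding gene whose symbol is MRPL or MRPS followed by a number and at most a letter from A to C, which gave 78 of the 20263 genes in the count table, 49 named for the large subunit (MRPL) and 29 for the small subunit (MRPS). Messenger RNA was sequenced from MDA-MB-231, a long-established human cell line of triple-negative breast cancer, kept for 24 h in medium with 10% fetal bovine serum. The groups were DMSO, the solvent control, with 2 libraries, and Neoribocic, a compound under study in breast cancer, with 2 libraries. The treatment protocol calls the compound Rib_CA, which was read as the same treatment, at a dose not given in the sources used here. A single line was studied. The labels do not state whether replicate libraries came from different cultures, and the p-values then reflect only the spread between libraries, which may be technical.

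Mitochondria keep a small genome of their own, and its messages are read by a ribosome that differs from the ribosome of the cytosol. The mitochondrial genome provides the ribosomal RNAs, while every protein of the mitochondrial ribosome is encoded in the nucleus, translated in the cytosol and imported. The small subunit holds the messenger RNA and decodes it, and the large subunit joins the amino acids and releases the new chain at the inner membrane, where the products become core subunits of the respiratory chain. Some of the proteins descend from bacterial ribosomal proteins and others were added in mitochondria.

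The libraries held 34774542 to 43014212 counts, and replicates correlated at 0.977 in DMSO and 0.982 in Neoribocic on log2 CPM (counts relative to the TMM-scaled library size) across genes. The 6 markers of the line were present in every library, but lower in Neoribocic, with a sum of 7370 and 8480 CPM in DMSO and 4900 and 5200 CPM in Neoribocic (VIM 2800 to 4240, AXL 1110 to 1820, EGFR 918 and 1080 against 347 and 376, MET 239 and 169 against 57.7 and 67.5 CPM). The 6 epithelial or hormone receptor markers summed to 96.9 and 98.9 CPM in DMSO and 127 and 110 CPM in Neoribocic, mostly ERBB2 (65.6 to 109), with GATA3 at 8.22 to 21.8, EPCAM at 9.31 to 9.93, PGR at 0.282 to 1.77, ESR1 at most 0.649 and CDH1 at most 0.141 CPM. The 4 markers of other cells summed to 9.14 and 9.18 CPM against 6.33 and 7.03 CPM, mostly COL1A1 (5.84 to 8.08), with PECAM1 at most 1.16, PTPRC at most 0.62 and DCN at 0. The part of these shifts in the results was not tested. The 13 protein genes of the mitochondrial genome took 8.68% and 21.7% of all counts in DMSO replicates 1 and 2, against 5.76% and 7.24% in Neoribocic replicates 1 and 2, so DMSO replicate 2 stood apart in this respect.

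The mitochondrial ribosomal protein genes as a group leaned upward under Neoribocic. All 78 passed the filter on low counts, with 242 to 10500 counts per library. In edgeR's quasi-likelihood test across 13879 genes (adjusted p under 0.05), 25 of the 78 rose and 5 fell, and 48 were not called. Among all genes tested, 40.4% were called, 19.1% higher and 21.3% lower, so the share of members that rose, 32.1%, was above the background and the share that fell, 6.41%, was below it. The first of these comparisons turned round without DMSO replicate 2, where 7.7% of members and 11.8% of all genes were called higher. The median log2 fold change (Neoribocic minus DMSO) was 0.46 over the members, with quartiles of 0.09 and 1.08, and 0.01 over all genes tested. Of the members, 61 had a fold change above 0, and 20 of the called rises and 1 of the called falls were at least 2-fold. In bulk RNA, fewer cells of a kind and less RNA per cell cannot be told apart.

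Both Neoribocic libraries lay above both DMSO libraries for 44 members, 56.4% of them, where 37.8% of all genes did. Both lay below for 9 members, 11.5%, where 37.3% of all genes did. For the other 25 members the groups overlapped. Neoribocic replicate 1 was higher than replicate 2 in 66 of the 78 members, against 6841 of 13879 genes overall. The number of called rises depended on the libraries, at 11 without DMSO replicate 1, 6 without DMSO replicate 2, 7 without Neoribocic replicate 1 and 28 without Neoribocic replicate 2. The members' shares were then 14.1%, 7.7%, 9.0% and 35.9%, against 12.1%, 11.8%, 7.1% and 15.8% of all genes. The called falls numbered 2, 3, 1 and 1 in the same order, and the members' median was 0.57, 0.49, 0.20 and 0.62. With library totals in place of TMM factors 29 members rose and 1 fell, against an all-gene median of 0.18 on that scale.

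**Figure D1:**
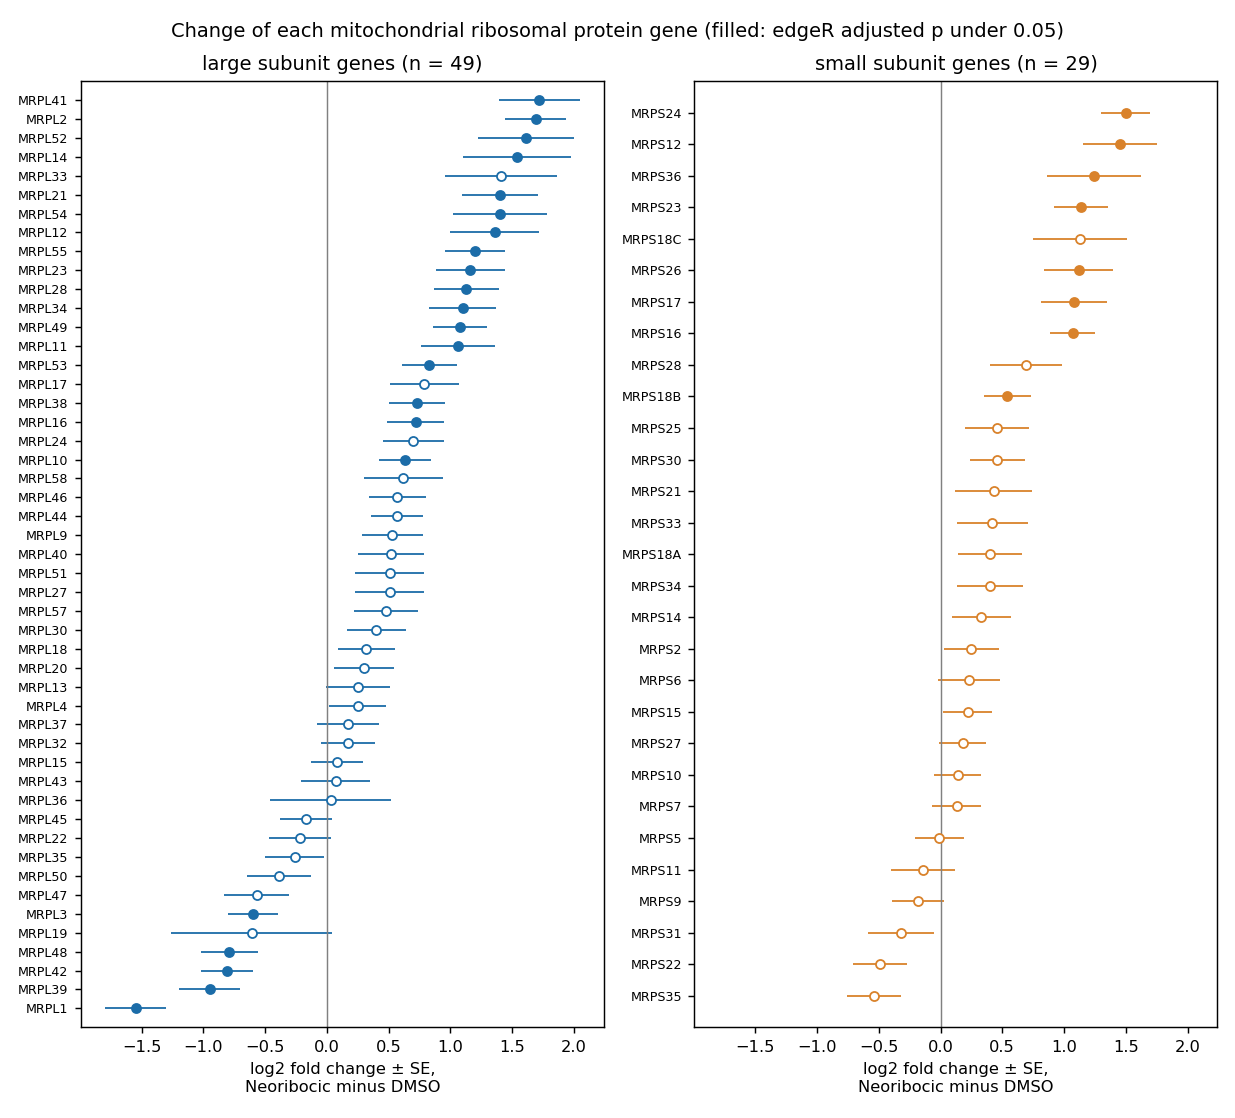
Log2 fold change (Neoribocic minus DMSO, horizontal axis) with bars of 1 standard error for each of the 49 large (left) and 29 small (right) subunit genes, in order of size, filled where edgeR's adjusted p was under 0.05. The values run from -1.55 for MRPL1 to 1.72 for MRPL41, and the 5 filled points below 0 are all in the large subunit.

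Over all genes and over the members together, the fold change was related to transcript length and GC content, but little so within the small subunit genes. The members are short, with a median principal transcript of 1458 bases against 3105 bases over all genes tested, and 58 of the 78 were in the shortest of 5 equal classes of all tested genes by transcript length. In that class (207 to 1781 bases) the median log2 fold change was 0.57 over all 2773 genes and 0.51 over the 58 members. There 33.2% of all genes rose and 6.38% fell, and of the 58 members 20 rose and 4 fell. In the highest of 5 such classes of GC content the median was 0.60 over all genes and 1.12 over 11 members. Of these members 7 rose and 0 fell, where 38.5% of all genes in the class rose and 4.58% fell. In the lowest class the median was -0.54 over all genes and -0.36 over 12 members. Of these members 1 rose and 2 fell, where 4.87% of all genes in the class rose and 38.7% fell. Across genes, which share the same 4 libraries, the Spearman correlation of the fold change with GC content was 0.45 over 13862 genes and 0.50 over the 78 members, 0.65 over the large subunit genes and 0.08 over the small subunit genes. With length it was -0.40 over all genes, -0.32 over the members, -0.36 over the large and -0.15 over the small subunit genes. In the middle class of length, which holds 6 members, the members' median was -0.18 against 0.02 over all genes. In the 2 classes of longest transcripts, which hold 3 and 2 members, the members' medians were 0.42 and 0.16 against -0.22 and -0.58 over all genes. The 2 members in the longest class, MRPL42 and MRPS23, have median coding transcripts of only 920 and 580 bases. The difference between the Neoribocic replicates (2 minus 1) followed GC content as well, at -0.51 over all genes and -0.42 over the members.

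When a smooth surface of length and GC content was removed from each library, the members' median fell to 0.14, with 13 members called higher (16.7%) and 8 lower. The background on that scale was 17.1% higher and 19.0% lower, so the share of members called higher was then near that of all genes. After this correction the Spearman correlation of the fold change with GC content was 0.13 over the large and -0.47 over the small subunit genes. With length it was 0.16 and 0.37. In the small subunit genes both correlations thus changed sign, from 0.08 before the correction with GC content and from -0.15 with length, and were larger in size after it. Some principal transcripts in the annotation are long and the correction rests on them. With the median length and GC content over all coding transcripts of a gene, a choice made after seeing the data, the median was 0.34, with 19 members called higher (24.4%) and 3 lower (3.8%), against 17.2% and 19.4% of all genes. The share called higher was thus near the background under the first correction and above it under the second. Of the 25 rises, 8 passed under both corrections, and 5 passed under all 17 alternatives run, MRPL2, MRPS24, MRPS23, MRPL49 and MRPS16. Of the 5 falls, 3 passed under both corrections and 1, MRPL1, under all 17.

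**Figure D2:**
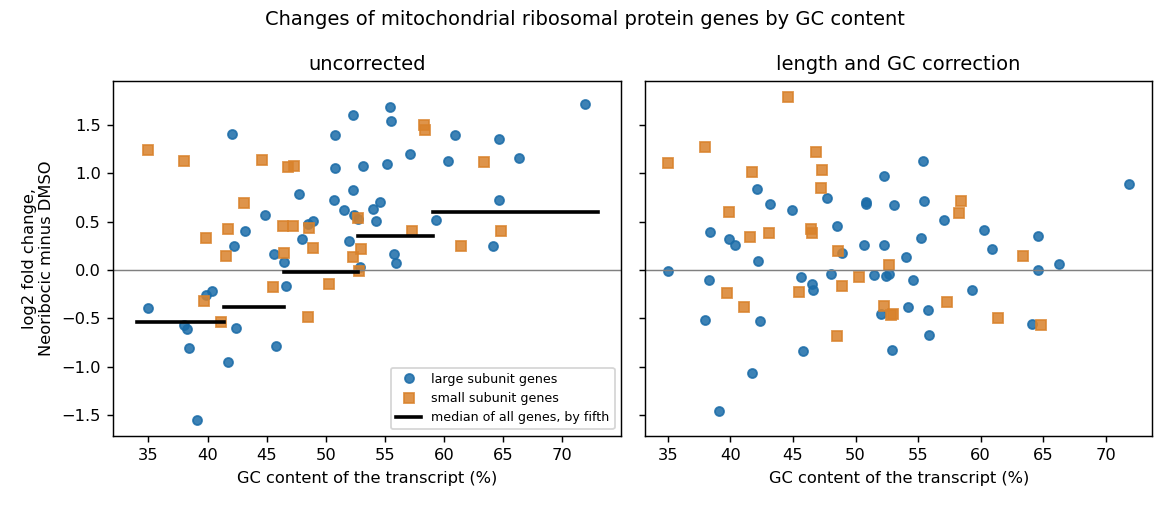
Log2 fold change (Neoribocic minus DMSO, vertical axis) against GC content of the principal transcript in percent (horizontal axis) for the large (circles) and small (squares) subunit genes, before (left) and after (right) the length and GC correction. Black lines on the left are the medians of all genes in 5 classes of GC content, which rise from -0.54 to 0.60, and on the right the members' median is 0.14.

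Among the large subunit genes, the largest rise belonged to MRPL41, which encodes a protein that the bacterial ribosome lacks. Its level was 21.1 and 20.5 CPM in DMSO replicates 1 and 2 and 91.2 and 45.7 CPM in Neoribocic replicates 1 and 2. Both Neoribocic libraries were higher, and replicate 1 stood well above replicate 2. The log2 fold change was 1.72 ± 0.33 (SE), with an edgeR adjusted p of 0.00643, which ran from 5.36e-06 to 0.0592 over the alternatives and missed the threshold without DMSO replicate 1 (0.0556) or DMSO replicate 2 (0.0592). After the correction by principal and by median transcript the log2 fold change was 0.89 and 0.91. MRPL2 encodes the homolog of a bacterial protein close to the site of peptide bond formation. It stood at 48.4 and 51.3 CPM in DMSO and 196 and 126 CPM in Neoribocic, with no overlap. Its log2 fold change was 1.69 ± 0.25 (edgeR adjusted p = 0.00174, at most 0.016 over the alternatives), and 1.13 and 1.22 after the corrections.

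MRPL52, a mitochondria-specific protein of the large subunit, stood at 23.9 and 22.0 CPM in DMSO and 98.1 and 42.4 CPM in Neoribocic (1.61 ± 0.39, edgeR adjusted p = 0.0195). MRPL14, which lies at the interface between the subunits and is bound there by an assembly factor, stood at 44.6 and 38.4 CPM against 171 and 69.6 CPM (1.54 ± 0.44, 0.0380). For both genes the groups did not overlap and Neoribocic replicate 1 was the highest library. MRPL54, a mitochondria-specific protein, stood at 18.9 and 20.3 CPM against 71.5 and 31.9 CPM (1.40 ± 0.38, 0.0250). MRPL21, the homolog of a bacterial protein, stood at 18.4 and 18.7 CPM against 64.1 and 33.9 CPM (1.40 ± 0.31, 0.0103). These 4 calls were each lost when DMSO replicate 1, DMSO replicate 2 or Neoribocic replicate 1 was left out, with adjusted p of 0.119, 0.127 and 0.0555 for MRPL52, 0.177, 0.197 and 0.0837 for MRPL14, 0.153, 0.13 and 0.108 for MRPL54, and 0.0732, 0.0695 and 0.0598 for MRPL21. After the correction by principal transcript the edgeR adjusted p was 0.0707 for MRPL52, 0.158 for MRPL14, 0.442 for MRPL54 and 0.0552 for MRPL21. By median transcript MRPL52 (0.0499) and MRPL21 (0.021) kept their calls, and MRPL14 (0.0911) and MRPL54 (0.16) did not.

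The stalk of the large subunit, which recruits translation factors, has MRPL10 as its base and MRPL12 as its repeated arm, with MRPL11 and MRPL53 listed beside them. All 4 genes rose, with a median log2 fold change of 0.95, against 19.1% called higher and a median of 0.01 over all genes. Their principal transcripts all lie in the shortest class of length, where 33.2% of all genes rose and the median was 0.57. MRPL12 stood at 68.8 and 66.1 CPM in DMSO and 237 and 109 CPM in Neoribocic (1.36 ± 0.36, edgeR adjusted p = 0.0257), and 68.2% of its exon bases are shared with another gene on the same strand, so its counts are uncertain. MRPL11 stood at 47.5 and 35.3 CPM against 109 and 63.3 CPM (1.06 ± 0.30, 0.0256). MRPL10 stood at 32.7 and 34.8 CPM against 54.8 and 49.5 CPM (0.63 ± 0.21, 0.0406). In none of the 3 did the groups overlap. After the length and GC correction 0 of the 4 stalk genes were called, with a median of 0.30. Without Neoribocic replicate 1 the edgeR adjusted p was 0.0837 for MRPL12, 0.166 for MRPL11 and 0.172 for MRPL10. It was 0.146, 0.056 and 0.134 without DMSO replicate 1, and 0.145, 0.136 and 0.0921 without DMSO replicate 2. For MRPL10 it was 0.0771 without Neoribocic replicate 2. For MRPL53 it was 0.102 without Neoribocic replicate 1, 0.0688 without DMSO replicate 1 and 0.0628 without DMSO replicate 2, so 0 of the 4 stalk genes were called under any of these 3 omissions.

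The 5 genes that fell all belong to the large subunit. MRPL1, whose protein forms the mobile stalk beside the exit of used transfer RNAs, stood at 32.6 and 23.8 CPM in DMSO and 9.63 and 9.62 CPM in Neoribocic. The Neoribocic libraries were almost equal and both lay far below DMSO. The log2 fold change was -1.55 ± 0.25 (edgeR adjusted p = 0.00254, at most 0.0237 over the alternatives), and it was -1.46 and -1.25 after the corrections. MRPL39, a mitochondria-specific protein, fell from 23.0 and 16.7 CPM to 10.2 and 10.3 CPM (-0.95 ± 0.25, 0.0173). MRPL48, of the central protuberance at the top of the subunit, fell from 22.3 and 18.9 CPM to 11.8 and 12 CPM (-0.79 ± 0.23, 0.0244). MRPL3, the homolog of a bacterial core protein, fell from 94.0 and 80.9 CPM to 56.6 and 58.7 CPM (-0.60 ± 0.20, 0.0410). In these genes too the groups were apart and the Neoribocic libraries close together. Leaving out Neoribocic replicate 1 gave an edgeR adjusted p of 0.0895 for MRPL39, 0.115 for MRPL48 and 0.172 for MRPL3. Leaving out DMSO replicate 1 gave 0.0865, 0.0963 and 0.16, and leaving out Neoribocic replicate 2 gave 0.0689, 0.0855 and 0.11 in the same order. MRPL3 was also not called without DMSO replicate 2 (0.067).

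MRPL42, a mitochondria-specific protein, stood at 50.2 and 58.2 CPM in DMSO and 30.5 and 31.1 CPM in Neoribocic (-0.81 ± 0.21, edgeR adjusted p = 0.0163). Its value turned to 0.39 after the correction with its principal transcript, which is 15582 bases long in the annotation. With its median coding transcript of 920 bases it was -0.52, so its direction after correction depended on the transcript taken. Leaving out a library ended its call in 3 cases, with an edgeR adjusted p of 0.0781 (DMSO replicate 2), 0.0895 (Neoribocic replicate 1) and 0.0595 (Neoribocic replicate 2).

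Of the 29 small subunit genes, 8 rose and 0 fell. After the length and GC correction 7 were called higher and 3 lower (MRPS34, MRPS5 and MRPS22, named after their values were seen), and with median transcripts 10 higher and 0 lower, so the absence of falls depended on the correction. MRPS24, the homolog of a bacterial protein at the entry of the messenger RNA channel, stood at 44.0 and 48.5 CPM in DMSO and 143 and 118 CPM in Neoribocic. Both Neoribocic libraries were close together and well above DMSO. Its log2 fold change was 1.5 ± 0.20 (edgeR adjusted p = 0.00143, at most 0.0262 over the alternatives), and 0.59 and 0.90 after the corrections by principal and by median transcript. Of its exon bases 23.2% are shared with another gene on the same strand. MRPS12, which lies at the decoding site, stood at 26.7 and 21.2 CPM against 82.8 and 48.2 CPM (1.45 ± 0.30, 0.00692). Its call was lost only without DMSO replicate 2, with an edgeR adjusted p of 0.0547, and its fold change was 0.71 and 0.75 after the corrections. MRPS16 and MRPS23, chosen after their values were seen because their calls held under every alternative, were close between replicates. MRPS16 stood at 71.5 and 73.5 CPM against 154 and 150 CPM (1.07 ± 0.18, 0.00327). MRPS23 stood at 32.8 and 29.8 CPM against 76.6 and 61.6 CPM (1.14 ± 0.22, 0.00488). After the correction by principal transcript their fold changes were 1.22 and 1.79, and by median transcript 1.04 and 1.02. The principal transcript of MRPS23 is 5621 bases long, against a median of 580 bases.

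Humans have 3 genes related to a single bacterial protein of the small subunit, MRPS18A, MRPS18B and MRPS18C. MRPS18B stood at 79.9 and 71.5 CPM in DMSO and 111 and 109 CPM in Neoribocic (0.54 ± 0.19, edgeR adjusted p = 0.0496). Its call was lost whichever library was left out, with an edgeR adjusted p of 0.0888 without DMSO replicate 1, 0.167 without DMSO replicate 2, 0.164 without Neoribocic replicate 1 and 0.122 without Neoribocic replicate 2. MRPS18C stood at 32.9 and 26.6 CPM against 89.7 and 40.3 CPM (1.13 ± 0.38, 0.0546) and was not called, though its groups did not overlap. MRPS18A, whose protein sits in the large subunit, stood at 38.5 and 53.2 CPM against 70.5 and 50.6 CPM, so the groups overlapped (0.40 ± 0.26, 0.235). On the opposite strand another gene covers 47.0% of the exon bases of MRPS18A and 40.2% of those of MRPS18C, with strand handling not given in the sources used here.

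Some names do not match the place or work of the protein. MRPS30, another protein of the large subunit, stood at 51.2 and 68.8 CPM in DMSO and 85.4 and 79.4 CPM in Neoribocic (0.46 ± 0.22, edgeR adjusted p = 0.125). MRPS36, now known as a subunit of the oxoglutarate dehydrogenase complex, stood at 19.1 and 15.1 CPM against 55.4 and 25.3 CPM (1.24 ± 0.38, 0.0379), and its call was lost without Neoribocic replicate 1 (0.201), DMSO replicate 1 (0.121) or DMSO replicate 2 (0.191). MRPL58, which releases stalled chains as a hydrolase, stood at 26.2 and 22.1 CPM against 48.8 and 25.2 CPM (0.62 ± 0.32, 0.162). MRPL45, which anchors the exit of the tunnel to the inner membrane, stood at 66.8 and 56.2 CPM against 50.5 and 59.1 CPM (-0.17 ± 0.21, 0.556), with overlapping groups.

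**Figure D3:**
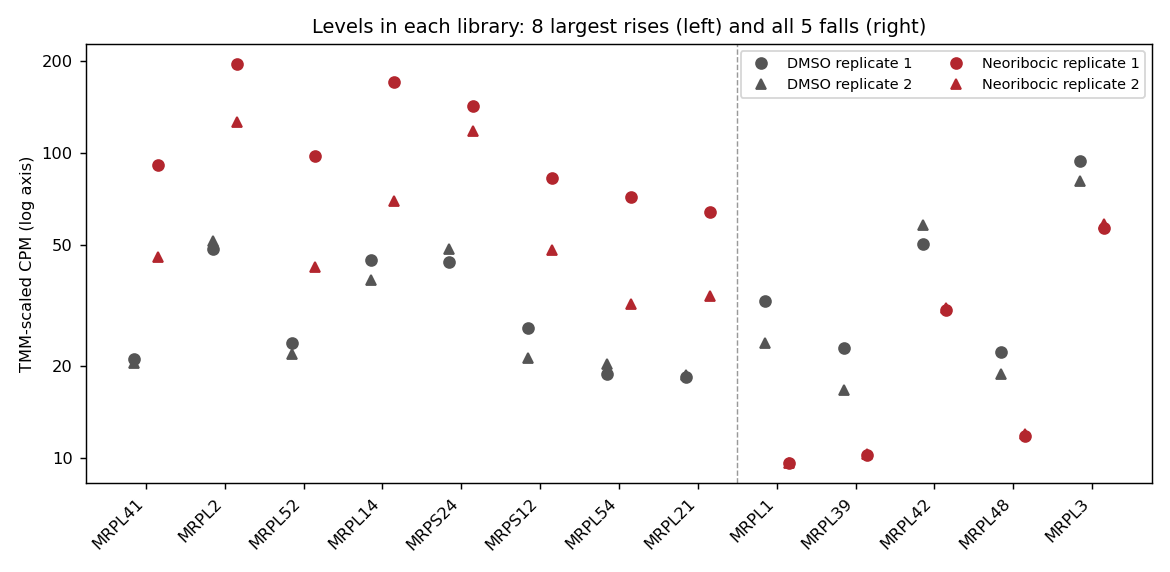
Levels in TMM-scaled CPM (log axis) of the 8 largest called rises (left) and the 5 called falls (right) in each of the 4 libraries. Circles stand for replicate 1 and triangles for replicate 2, with DMSO in grey and Neoribocic in red. In all 8 rising genes Neoribocic replicate 1 is the highest library, and in the 5 falling genes the Neoribocic points nearly coincide.

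The subunits were set side by side by their calls, medians and sums. Of the 49 large subunit genes 17 rose (34.7%) and 5 fell (10.2%), with a median log2 fold change of 0.52. Of the 29 small subunit genes 8 rose (27.6%) and 0 fell, with a median of 0.40. Over all genes 19.1% rose and 21.3% fell. The difference between the subunits was not tested, since genes are not replicates. Moving MRPS18A and MRPS30 to the large subunit and leaving out MRPS36 gave 17 higher and 5 lower of 51 with a median of 0.51, and 7 higher and 0 lower of 26 with a median of 0.37. After the length and GC correction the large subunit had 6 called higher (12.2%) and 5 lower (10.2%), and the small 7 (24.1%) and 3 (10.3%). All genes then had 17.1% higher and 19.0% lower, so the share of large subunit genes called higher lay below the background. The order of the medians turned, at 0.09 for the large and 0.20 for the small subunit genes, and 0.33 and 0.37 with median transcripts. By principal transcript the corrected values of the small subunit genes followed GC content (Spearman correlation -0.47). Without Neoribocic replicate 1 the medians were 0.20 and 0.21.

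The summed level of the large subunit genes was 2114 and 1980 CPM in DMSO and 3609 and 2398 CPM in Neoribocic. The small subunit genes summed to 1430 and 1449 CPM in DMSO and 2180 and 1787 CPM in Neoribocic. Both sums were higher in both Neoribocic libraries than in either DMSO library. The ratio of the large to the small sum was 1.48 and 1.37 in DMSO and 1.66 and 1.34 in Neoribocic, so the groups overlapped in the balance of the subunits.

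**Figure D4:**
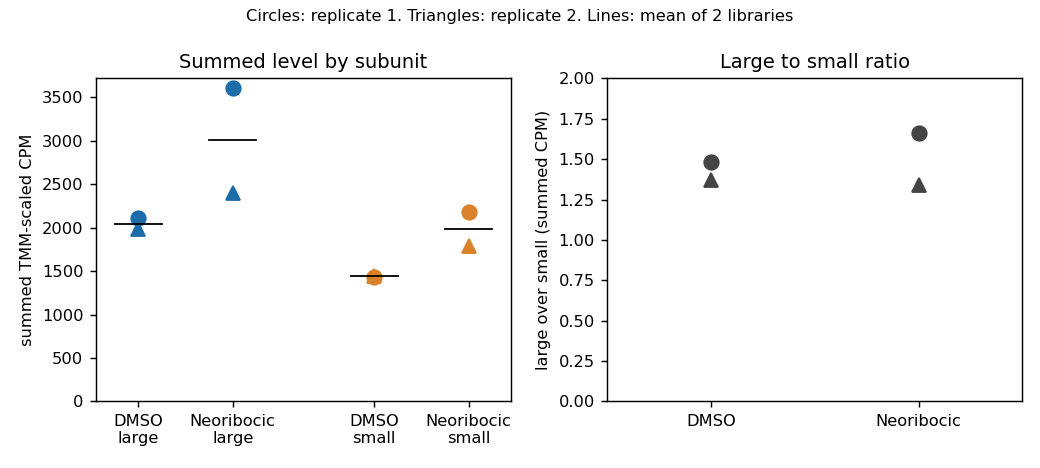
Summed TMM-scaled CPM of the 49 large and 29 small subunit genes in each library (left), with lines at the mean of 2 libraries, and the ratio of the large to the small sum (right), with circles for replicate 1 and triangles for replicate 2. The sums are highest in Neoribocic replicate 1, and the ratio of 1.34 in Neoribocic replicate 2 lies below both DMSO libraries.

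By the classes of the ribosomal protein names, 45 members count as bacterial homologs and 31 as specific to mitochondria, among them MRPS18A and MRPS18B despite their relation to a bacterial protein. Of the former 15 rose and 2 fell, with a median log2 fold change of 0.40, and of the latter 9 rose and 3 fell, with a median of 0.46. After the correction the medians were 0.13 and 0.05. By place, 1 of 8 genes around the exit tunnel rose and 1 fell (median 0.20), and 2 of 7 central protuberance genes rose and 1 fell (median 0.52). Their medians after the correction were -0.02 and -0.06. Beside these counts by class and place, 19.1% of all genes rose and 21.3% fell, with a median of 0.01. Pseudogenes named after a member exist for 34 of the 78, and 14 share more than 20% of their exon bases with another gene. Among the 20 members with no shared exon bases and no named pseudogene, 10 rose and 2 fell, with a median of 0.71. The share that rose was above that of all genes, and the share that fell was below it. After the length and GC correction 3 of these 20 were called higher and 3 lower, with a median of 0.18. Both shares were then below those of all genes, 17.1% higher and 19.0% lower.

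Per kilobase of principal transcript, the members had a median DMSO level of 27.1 CPM per kb. MRPL24 was highest at 114 CPM per kb, followed by MRPS34 at 94.5 and MRPS2 at 76.8. In CPM MRPL24 stood at 93.3 and 108 in DMSO and 202 and 126 in Neoribocic (log2 fold change 0.70 ± 0.25, edgeR adjusted p = 0.0553), MRPS34 at 81.5 and 112 against 156 and 98.9 (0.40 ± 0.27, 0.264), and MRPS2 at 106 and 145 against 162 and 137 (0.25 ± 0.22, 0.382). None of these 3 was called, and only in MRPL24 were the groups apart. MRPS33 at 3.10, MRPL42 at 3.48 and MRPL19 at 5.44 CPM per kb were lowest, and their principal transcripts are 4241, 15582 and 3479 bases long, against medians over coding transcripts of 744, 920 and 718.5 bases. MRPL19 varied most within groups of these, at 26.1 and 11.8 CPM in DMSO and 6.29 and 18.5 CPM in Neoribocic.

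The promoters of the members were read in RefSeq's human assembly GRCh38.p14, from 250 bases before to 50 bases after the gene start. A window was at hand for 69 of the 78. Letters were searched on both strands for factors known as regulators of nuclear genes for mitochondria or of stress responses. The ETS letters CCGGAAG, read by GABPA, were in 42.0% of the members' windows, against 18.6% of 11039 windows of tested genes and 10.7% of all 27305 windows. The YY1 letters AAGATGGCG were in 18.8% of members, 3.75% of tested genes and 1.85% of all windows. The NRF1 motif, GCGCA, any base and GCGC, was in 11.6%, 11.2% and 6.28%. The E-box CACGTG was in 8.70%, 9.94% and 7.43%, the letters TGATGNAA of ATF4 with a C/EBP factor in 1.45%, 1.70% and 3.67%, and CCAAT in 29%, 36.4% and 35.7%. A match describes the letters and does not show that a factor binds.

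Examples from members that rose, fell or were not called show these letters in capitals. Among the 69 members with a window, only MRPL55 holds an ATF4-type match. MRPL52 and MRPL55 rose, MRPL3 fell, and MRPS18A and MRPL17 were not called. Each runs 5′ to 3′ on the strand of its gene and ends before the gene start.
MRPL52, chr14:22829821-22829871, plus strand, YY1 letters: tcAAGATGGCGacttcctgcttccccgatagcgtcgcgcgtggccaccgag
MRPL3, chr3:131502984-131503043, minus strand, ETS letters: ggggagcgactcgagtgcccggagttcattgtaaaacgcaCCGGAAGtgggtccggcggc
MRPS18A, chr6:43687792-43687862, minus strand, ETS letters: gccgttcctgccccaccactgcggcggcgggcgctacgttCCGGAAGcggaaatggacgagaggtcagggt
MRPL17, chr11:6683402-6683461, minus strand, NRF1 letters: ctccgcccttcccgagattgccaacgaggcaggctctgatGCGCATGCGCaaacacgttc
MRPL55, chr1:228109367-228109454, minus strand, ATF4 letters on the opposite strand: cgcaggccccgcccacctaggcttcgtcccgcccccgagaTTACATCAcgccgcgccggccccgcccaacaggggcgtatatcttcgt
The median log2 fold change was 0.51 over 29 members with the ETS letters and 0.29 over 40 without them. Of those with them 10 rose and 2 fell, and of those without them 10 rose and 3 fell, where 19.1% of all genes rose and 21.3% fell. With and without the YY1 letters the median was 0.40 and 0.44. For the other letters the medians with and without were 0.41 and 0.46 (NRF1), 0.10 and 0.46 (E-box), and 0.36 and 0.48 (CCAAT). The 1 member with the ATF4 letters was at 1.2, against 0.42 without them. No test was made of these differences.

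Other genes of mitochondrial translation were described from lists, whose medians after the length and GC correction were 0.23 for the other ribosomal proteins, 0.11 for assembly factors, -0.10 for translation factors, -0.36 for message stability, 0.10 for transcription, 0.18 for chaperones and proteases and -1.89 for the mitochondrially encoded genes. The counts below stand beside 19.1% higher and 21.3% lower over all genes, and 17.1% and 19.0% after the correction. Of 5 proteins of the mitochondrial ribosome with other names, 1 rose and 1 fell (median log2 fold change 0.85). AURKAIP1, of the small subunit, stood at 33.8 and 27.2 CPM in DMSO and 118 and 52.9 CPM in Neoribocic (1.48 ± 0.39, edgeR adjusted p = 0.0246), a call lost without Neoribocic replicate 1 (0.0824), DMSO replicate 1 (0.109) or DMSO replicate 2 (0.151). PTCD3, a small subunit protein that binds RNA, stood at 113 and 77.7 CPM against 35.2 and 36.8 CPM (-1.41 ± 0.24, 0.00312), below DMSO in both libraries. DAP3, a GTP-binding small subunit protein, stood at 109 and 99.2 CPM against 114 and 117 CPM (0.15 ± 0.18, 0.541). Without Neoribocic replicate 2 the rises on this list numbered 3.

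Of 28 factors that assemble the mitochondrial ribosome or modify its RNA, 9 rose (32.1%) and 1 fell (median 0.49). After the correction 4 of the 28 were called higher (14.3%), below the 17.1% of all genes. Without Neoribocic replicate 1 the rises numbered 1, and without DMSO replicate 2 they numbered 4. The RNA methyltransferases MRM3 and NSUN4 rose (log2 fold changes 1.06 ± 0.23 and 0.93 ± 0.22, edgeR adjusted p = 0.00819 and 0.0107), and so did the GTPase MTG2 (0.96 ± 0.23, 0.0127). FASTKD2, which binds the RNA of the large subunit in mitochondrial granules, stood at 25.8 and 29.3 CPM in DMSO and 9.68 and 11.9 CPM in Neoribocic (-1.35 ± 0.24, 0.00355). MRM3 and MTG2 were not called without Neoribocic replicate 1 (0.055 and 0.0952), nor was MTG2 without DMSO replicate 2 (0.0638). FASTKD2 was lower in both libraries, and its call passed under every alternative.

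Of 13 translation factors 2 rose (15.4%) and 4 fell (30.8%), with a median of -0.33, against 19.1% and 21.3% of all genes. MTFMT, which makes the formylated initiator, stood at 7.36 and 7.81 CPM in DMSO and 20.2 and 17.7 CPM in Neoribocic (1.32 ± 0.23, edgeR adjusted p = 0.00372). TUFM, the elongation factor that brings transfer RNAs, stood at 302 and 291 CPM against 597 and 473 CPM (0.85 ± 0.20, 0.0115). The initiation factors MTIF3 (-1.22 ± 0.23, 0.00439) and MTIF2 (-0.85 ± 0.24, 0.0223) and the GTPase GUF1 (-1.10 ± 0.23, 0.00723) fell. Without Neoribocic replicate 1 the falls numbered 1 and the rises 1, with an adjusted p of 0.0853 for TUFM, 0.144 for MTIF2 and 0.06 for GUF1. Without DMSO replicate 1 the falls numbered 2 (MTIF2 at 0.108), and without DMSO replicate 2 the rises numbered 1 (TUFM at 0.051).

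Of 11 genes for stability of mitochondrial messages and insertion of their products, 0 rose and 3 fell (27.3%, median -0.19). LRPPRC, which protects mitochondrial messages, stood at 165 and 119 CPM in DMSO and 43.3 and 51.0 CPM in Neoribocic (-1.59 ± 0.23, edgeR adjusted p = 0.00172). PNPT1, a mitochondrial RNA exonuclease (-0.85 ± 0.24, 0.0237), and PRORP, which cuts transfer RNAs free (-0.68 ± 0.23, 0.0416), also fell. Without Neoribocic replicate 1 or DMSO replicate 1 only 1 of the 3 falls was called, and PRORP was called under none of the 4 omissions. Of 14 genes of mitochondrial transcription and its nuclear regulators, 2 rose (14.3%, against 19.1% of all genes), POLRMT, the mitochondrial RNA polymerase (1.13 ± 0.22, 0.005), and NRF1 (0.74 ± 0.22, 0.0285), and 1 fell, GABPA, a subunit of the ETS factor named above (-0.83 ± 0.26, 0.0332). The call of GABPA was lost without Neoribocic replicate 1 (0.169), DMSO replicate 1 (0.171) or Neoribocic replicate 2 (0.0726), and its change was -0.16 after either correction. Of 13 chaperones and proteases, 3 rose (23.1%, near the share of all genes), LONP1 (0.87 ± 0.19, 0.00837), HTRA2 (0.78 ± 0.27, 0.047) and SPG7 (0.58 ± 0.20, 0.0482), and 1 fell, the chaperonin HSPD1 (-1.67 ± 0.22, 0.00138). None of the 3 rises was called without Neoribocic replicate 1, and 1 was without either DMSO replicate. NRF1 was not called whichever library was left out, at 0.0518 to 0.14.

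The messages that the mitochondrial ribosome reads come from the 13 protein genes of the mitochondrial genome. Both Neoribocic libraries lay below both DMSO libraries for 10 of them (76.9%, against 37.3% of all genes). In the other 3, MT-CO2, MT-ND6 and MT-ND3, the groups overlapped. By edgeR 4 of the 13 fell and 0 rose (median -1.48), and those named here were chosen among the called ones. MT-ND4 stood at 14000 and 44100 CPM in DMSO and 5820 and 7960 CPM in Neoribocic (-2.08 ± 0.56, edgeR adjusted p = 0.0287), MT-ND4L at 3770 and 11300 against 1840 and 2060 (-1.95 ± 0.53, 0.0327), and MT-CO3 at 11500 and 28500 against 6860 and 7500 (-1.48 ± 0.43, 0.0285). DMSO replicate 2 was far above DMSO replicate 1 in each. The falls numbered 13 without DMSO replicate 1, 2 without DMSO replicate 2 and 0 without either Neoribocic replicate, so their count rested on single libraries.

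The protein genes of the cytosolic ribosome leaned upward more than the mitochondrial ones in their medians, a difference not tested. Of 85 tested, 45 rose (52.9%, against 19.1% of all genes) and 0 fell, with a median log2 fold change of 1.0. After the correction 16 were called higher (18.8%, near the 17.1% of all genes) and 2 lower, with a median of 0.44. They summed to 34170 and 30330 CPM in DMSO and to 76580 and 44520 CPM in Neoribocic. FAU stood at 46.8 and 48.0 CPM in DMSO and 188 and 110 CPM in Neoribocic (1.66 ± 0.27, edgeR adjusted p = 0.00299), RPL36 at 230 and 213 against 927 and 531 (1.72 ± 0.28, 0.00305), and RPS15 at 102 and 92.8 against 242 and 192 (1.15 ± 0.20, 0.00348). RPS15 turned to -0.05 after the correction by principal transcript and was 0.34 by median transcript, so its direction depended on the transcript taken. The cytosolic rises numbered 22 without DMSO replicate 1, 13 without DMSO replicate 2, 17 without Neoribocic replicate 1 and 62 without Neoribocic replicate 2.

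**Figure D5:**
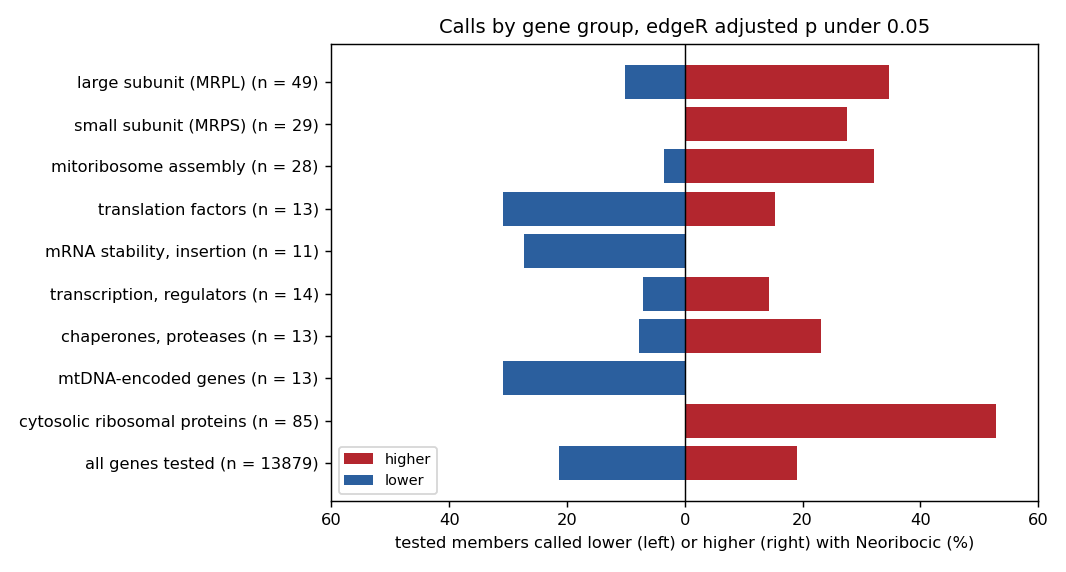
Percent of the tested members of each gene group called lower (blue bars, left) or higher (red bars, right) in Neoribocic by edgeR at an adjusted p under 0.05, with all genes tested at the bottom. Red bars are longest for the cytosolic ribosomal protein genes (45 of 85). No small subunit gene has a blue bar (0 of 29), against 21.3% of all genes and 6.38% of those in the shortest class of transcripts.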

How the data were processed

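Messenger RNA sequencing of MDA-MB-231 cells with DMSO (2 libraries) or Neoribocic (2 libraries) was analysed. The authors deposited unnormalized read counts for each Ensembl gene. Aligner, counter, strand handling and human build were not given in the sources used here. Per the submitters' processing notes the builds were GRCm38 and mm10, both of mouse, while the IDs are human. Symbols came from a table of gene names (20148 of 20263 IDs found), and length and GC content from 1 principal transcript per gene in GENCODE release 29. Among counts below 20, 62.3% to 65.4% were even.

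Counts were tested with edgeR 4.0.16 in R 4.3.3 (filterByExpr, TMM, robust glmQLFit, glmQLFTest, group as the only term), with Benjamini-Hochberg adjustment over 13879 genes and a threshold of 0.05. The SE of a log2 fold change was taken from the change and its F statistic (change over root F). The length and GC correction used mgcv 1.9.3 to fit, per library, a surface with 30 knots to log2 CPM (prior count of 3) and entered it as an offset. The script was tested on simulated data.

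Alternatives were other size factors, count filters, DESeq2 1.42.0, limma-voom (limma 3.58.1), no robust option, a replicate block, each library left out, no mitochondrial genes, halved counts, the correction and a threshold of 0.01. The members and the gene lists were chosen with earlier results of these data known. Named genes were up to 8 of the largest called rises and of the largest called falls, with a mean of at least 5 CPM and groups apart. Further named genes were fixed genes of known role, up to 3 called genes per direction from each list by p, and the 3 highest and lowest members per kilobase.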

Additional observations from a re-analysis of the deposited data

How the results depend on the processing

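With 2 libraries per group, the calls rest on few values, and leaving out a library tests the lone one as if it varied like the other group. The 25 members called higher became 6 to 28 when a library was left out, 13 with the length and GC correction and 8 at an adjusted p of 0.01. The 5 called lower became 1 to 3 without a library, 1 with library totals only, 8 with the correction, 3 with the correction by median transcript (chosen after seeing the data) and 1 at 0.01. The 22 large subunit calls became 4 to 21 without a library, 11 and 12 with those corrections and 5 at 0.01, and the 8 small subunit calls became 3 to 8 without a library, 10 with either correction and 4 at 0.01. These corrected calls pool both directions. By principal transcript they were 6 higher and 5 lower in the large and 7 higher and 3 lower in the small subunit. Of the 22 and 8 first calls, 8 and 5 were kept there. By median transcript they were 9 higher and 3 lower in the large and 10 higher and 0 lower in the small subunit. The large subunit median of 0.52 was 0.20 to 0.76 without a library and 0.09 after the correction. The small subunit median of 0.40 was 0.21 to 0.55 and 0.20. The correction by principal transcript changed the sign of MRPL42 (0.39), RPS15 (-0.05, edgeR adjusted p = 0.855) and MRPS34 (-0.57). It also changed the sign of MRPS2 (-0.5), MRPS18A (-0.33), MRPL24 (-0.1) and MRPL58 (-0.05), all named above. By median transcript MRPL42 (-0.52), RPS15 (0.34), MRPL24 (0.27) and MRPL58 (0.22) kept their direction. MRPS34 (-0.34), MRPS2 (-0.36) and MRPS18A (-0.18) did not. Upper-quartile factors and library totals moved the all-gene median to 0.135 and 0.179, and the members stayed 0.44 above it on both. For 56 named genes, 949 values under alternatives kept direction and side of the threshold in 766 cases, were weaker in 154, stronger in 17, reversed with a call in 3, and changed sign with no call in 9. The replicate numbers are not said to pair the libraries, and the deviations of replicates numbered 1 correlated at -0.0548 between groups. With the replicate number as a block 27 members were called higher and 4 lower, 23 in the large and 8 in the small subunit, with medians of 0.49 and 0.38, and the calls of MRPL3, MRPL10, MRPS18B, PRORP and SPG7 were lost while MRPS18C, MRPL24, MRPL17 and MRPL33 gained one. The block gave 9 falls among the mitochondrially encoded genes and 3 rises among the 5 ribosomal proteins with other names. The cause of these changes was not tested.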
